A study of Mus musculus with 15 samples.

Results

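The tumor necrosis factor (TNF) superfamily was followed through the podocyte fraction of young and aged mouse kidneys. Members were the protein-coding genes whose symbol begins with Tnfsf or Tnfrsf, together with Tnf, Lta, Ltb, Ltbr, Fas, Fasl, Cd40, Cd40lg, Cd27, Cd70 and Eda2r, which gave 43 of the 46078 genes in the table, 18 ligands and 25 receptors. All mice were male C57BL/6J. Young mice were 4 months old and received no injection, and aged mice were 21 months old and were injected intraperitoneally once a week for 8 weeks with 12 mg/kg of either an anti-PD-1 antibody (aPD1ab, clone RMP1-14) or its isotype control (IgG2a, clone 2A3). The titles of the aPD1ab samples give 47 days. Cells were taken from digested kidney with magnetic beads and an antibody to nephrin, a protein of the podocyte slit diaphragm, and their RNA was sequenced in bulk. The labels list 15 mice, 5 in each group, and 13 libraries could be tied to a group, 5 young, 4 aged IgG2a and 4 aged aPD1ab, by column numbers that the study prints in a plot and that no label carries.

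Ligands of this superfamily are mostly trimers held in the membrane or shed from it, and their receptors fall broadly into those with a death domain, which can recruit caspases, those that bind TRAF adaptors and feed NF-kB signaling, and decoys that bind a ligand without signaling. TNF itself acts through a widely expressed receptor, TNFR1 (Tnfrsf1a), and a more restricted one, TNFR2 (Tnfrsf1b). Many other members serve talk between lymphocytes, myeloid cells and epithelium, among them the CD40, BAFF, RANK and TWEAK systems, and both TNF receptors are known for their part in kidney inflammation.

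Total counts lay between 19912969 and 32717100 per library. The floor used here, 3 counts, stood at 0.0843 to 0.207 CPM (counts scaled to the TMM-normalized library size), which covers counting error only. Gene coordinates follow GENCODE M21 (GRCm38). The fraction held other cells. The summed level of 10 podocyte markers lay between 344 and 1597 CPM over all libraries, and was in every library below that of 10 proximal tubule markers (1067 to 16331) and of 10 macrophage markers (1992 to 9375). Among the IgG2a libraries, replicate 1 stood apart on the first principal component of log2 CPM (-16.4, the other 3 at 71.6 to 84.2). It held 3097 CPM of the macrophage markers and 5360.4 of the proximal tubule markers, against 7641 to 9375 and 1067 to 1693 in IgG2a replicates 2 to 4. Members called in comparisons with the IgG2a group are therefore given with and without IgG2a replicate 1. Among the aPD1ab libraries, replicate 2 lay at -64.9 on that component and the others at -13.9 to 10.9. It held the highest proximal tubule sum of all libraries, 16331 CPM, and the lowest podocyte sum, 344 CPM. This aPD1ab library was left out only where stated. In bulk RNA, fewer cells of a type and less RNA per cell cannot be told apart.

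The family was measured over a wide range of levels. Of the 43 genes, 38 had enough counts to be tested in at least 1 comparison, 14 ligands and 24 receptors. The 5 others reached at most 6 counts in any library for Cd40lg and Cd70, 8 for Tnfsf11 (RANK ligand), 13 for Tnfsf4 (OX40 ligand) and 14 for Tnfrsf9 (the receptor of the Tnfsf9 product), so the receptors CD40 and RANK were measured with few counts of their ligands. Levels of different genes were compared per kilobase of exon, as the mean over all 13 libraries. TNFR1 led at 39.5 CPM per kb, followed by Tnfsf9 at 33.4, TNFR2 at 30.4, Tnf at 30.3, the lymphotoxin beta receptor Ltbr at 26.2 and the death receptor Tnfrsf21 at 20.4. The order differed by group. In young mice Tnfrsf21, at 25.2, stood above TNFR2 at 22.7 and Tnf at 22.3, while in IgG2a mice TNFR2 (44.9) and Tnf (43.3) stood above Tnfsf9 (40.7) and Tnfrsf21 was at 14.4, an order that was not tested. Over all libraries a lower tier held the TWEAK receptor Tnfrsf12a (8.26), Tnfrsf13b (5.87), Tnfsf12 (5.73), Tnfrsf14 (5.35), Cd40 (5.23), Tnfsf10 (4.96), Fas (3.99), Ltb (3.38) and Tnfrsf11a (3.19). Every other tested member stayed at or under 1.40 CPM per kb, the level of Tnfrsf13c. Exons of Tnfsf9 overlap the gene Gm11110 on the other strand, and the strand setting of the counting is not given in the sources used here, so its reads cannot be told from those of its neighbor.

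**Figure D1:**
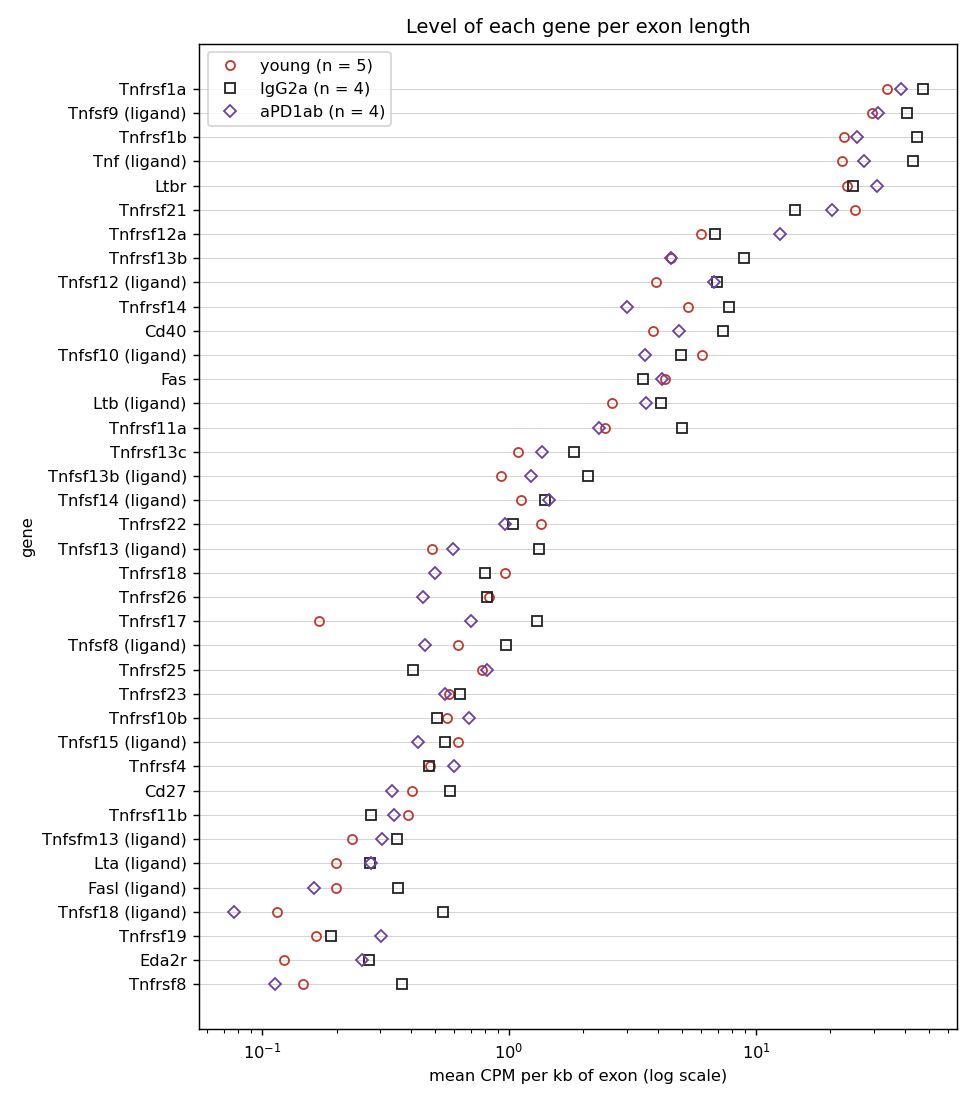
Mean level of each tested member per group, in CPM per kilobase of exon on a log axis, with ligands marked by name. Tnfrsf1a, Tnfsf9, Tnfrsf1b, Tnf, Ltbr and Tnfrsf21 sit above the rest in all groups.

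To see how the family changed with age, aged IgG2a-injected mice (n = 4) were compared with young mice (n = 5). Only the aged mice were injected, so age and injection cannot be told apart. A change with age means here the difference between these groups. Of 37 members tested, 6 were higher and 1 was lower at an adjusted p under 0.05 from edgeR's quasi-likelihood test, where 9.05% of the 15953 genes tested were higher and 8.38% lower. The higher genes were TNFR1, TNFR2, the RANK gene Tnfrsf11a, the ligands Tnfsf12 (TWEAK) and Tnfsf13 (APRIL) and the plasma cell receptor Tnfrsf17 (BCMA), and the lower gene was Tnfrsf21. The median log2 fold change was 0.56 over the members and 0.038 over all genes tested, with 28 members above 0 and 9 below. Without IgG2a replicate 1, 12 members were higher and 2 lower, against 22.1% and 23.5% of 16216 genes, with a median of 0.75 for the members and -0.0062 for all genes.

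**Figure D2:**
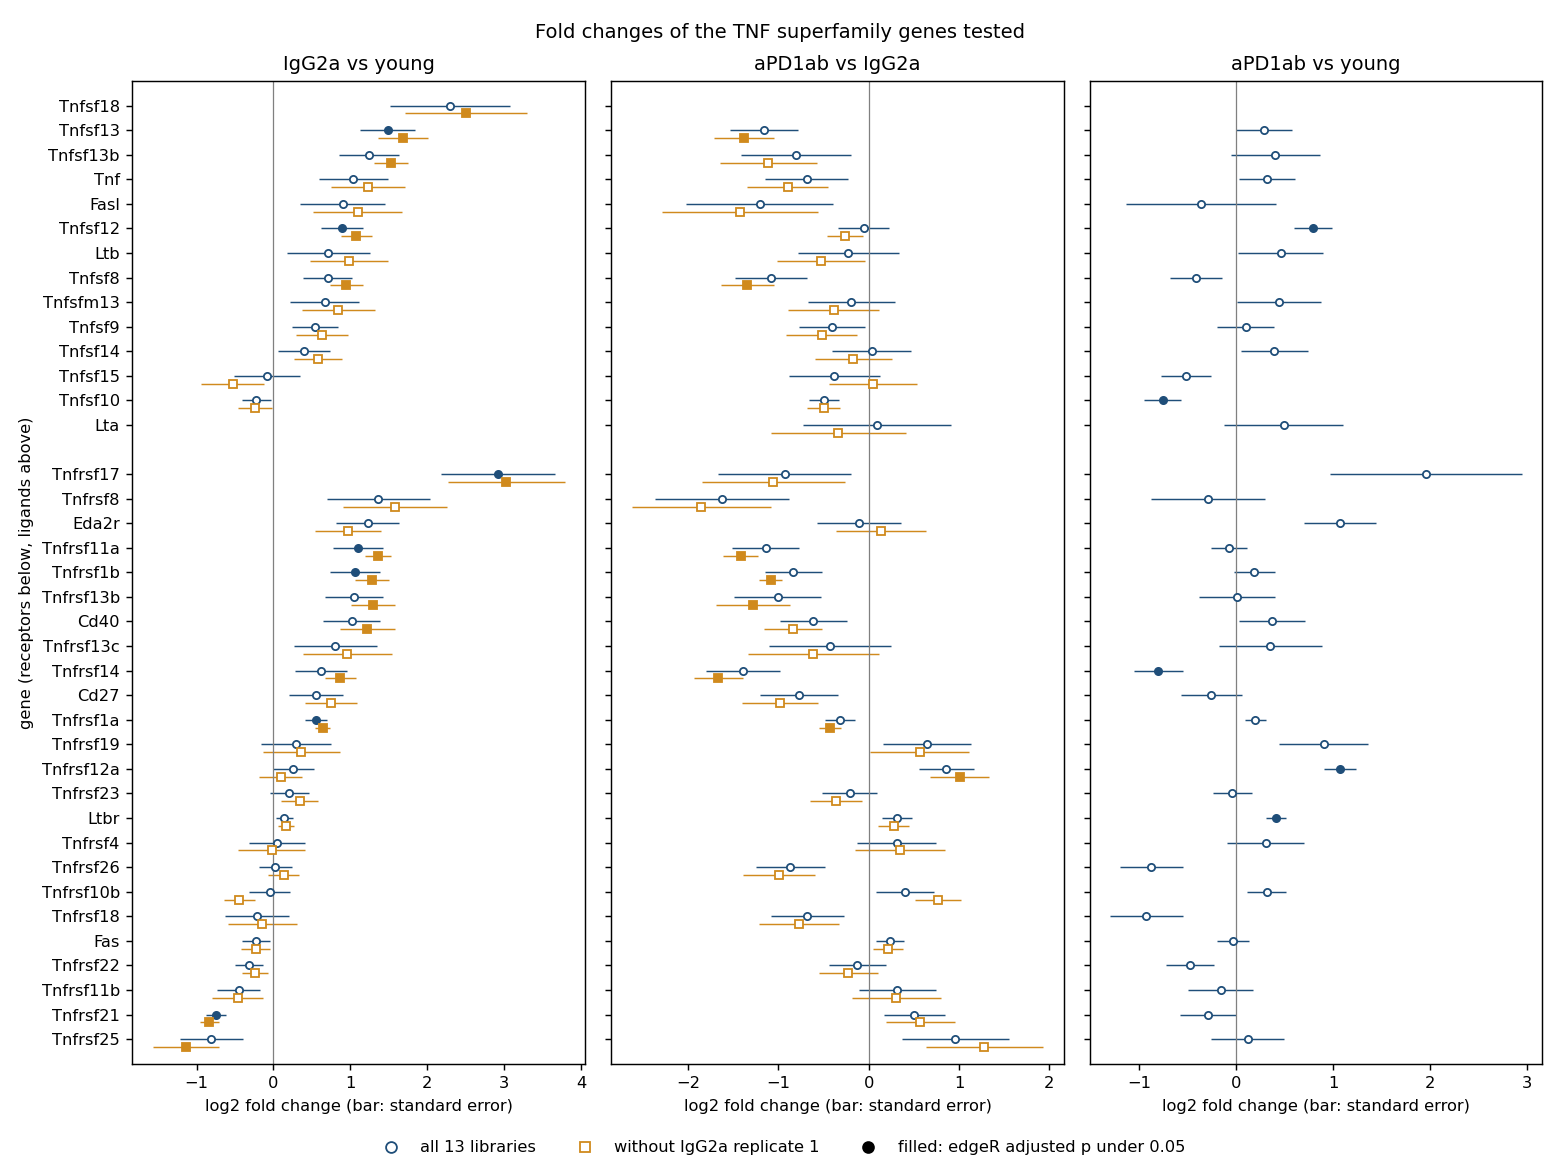
Log2 fold change of each tested member with its standard error in each comparison, with and without IgG2a replicate 1. Age values lie mostly to the right of 0, and those of aPD1ab against IgG2a mostly to the left.

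TNF and its receptors were abundant in every group. Tnf (ENSMUSG00000024401, chromosome 17, 35199381 to 35202007) stood at 40.7, 46.1, 21.7, 22.1 and 51.7 CPM in the young mice, at 39.0, 107, 112 and 26.5 in the IgG2a mice (replicates 1 to 4 in that order here and in what follows) and at 53.4, 28.1, 54.4 and 44.2 in the aPD1ab mice. Among the IgG2a libraries, replicates 2 and 3 lay above all young values and replicates 1 and 4 among them, and the log2 fold change with age of 1.04 (standard error 0.45, edgeR adjusted p = 0.126) did not pass the threshold, nor did 1.23 (standard error 0.48, edgeR adjusted p = 0.0672) without replicate 1. TNFR1 (ENSMUSG00000030341, chromosome 6, 125349362 to 125362484), the death domain receptor of TNF, measured 95.1, 93.7, 84.2, 74.8 and 91.7 CPM in young, 95.8, 134, 138 and 123 in IgG2a and 116, 95.5, 92.4 and 96.1 in aPD1ab mice. All IgG2a libraries exceeded all young ones, with replicate 1 barely above, and the change, on the log2 scale here and in what follows, was 0.55 (standard error 0.14, edgeR adjusted p = 0.028), or 0.64 (standard error 0.10, edgeR adjusted p = 0.000436) without replicate 1. TNFR2 (ENSMUSG00000028599, chromosome 4, 145213463 to 145246870), which binds TRAF proteins and is abundant on leukocytes, measured 105, 106, 81.8, 47.5 and 93.6 CPM in young, 75.6, 202, 205 and 204 in IgG2a and 114, 83.9, 93.4 and 100.2 in aPD1ab mice. Replicates 2 to 4 of the IgG2a group sat close together, above every other library, while replicate 1 lay inside the young range. The change was 1.06 (standard error 0.32, edgeR adjusted p = 0.0486) with it and 1.29 (standard error 0.22, edgeR adjusted p = 0.0013) without it. Both receptors lost their call when any library other than IgG2a replicate 1 was left out, with an edgeR adjusted p of up to 0.0881 for TNFR1 and 0.131 for TNFR2. TNFR2 also lost it with RLE size factors (edgeR adjusted p = 0.0537) and without the filter on low counts (0.0735).

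The 250 bases upstream of the start sites are shown for both TNF receptors, Tnfrsf12a and Tnfsf13 (RefSeq, GRCm38.p6, written 5′ to 3′ on the strand of the gene, capitals marking an AP-1 match). Tnfrsf12a was the member called higher with the antibody in the pairwise edgeR fit without IgG2a replicate 1. Tnfsf13 was the member called over all libraries that had a motif match. The RefSeq start sites of Tnfrsf1a, Tnfsf13 and Tnfrsf12a lie inside the GENCODE gene span, so the window of Tnfrsf1a falls within the gene coordinates given here and those of Tnfsf13 and Tnfrsf12a overlap them.
Tnfrsf1a, chr6:125349473-125349722, plus strand: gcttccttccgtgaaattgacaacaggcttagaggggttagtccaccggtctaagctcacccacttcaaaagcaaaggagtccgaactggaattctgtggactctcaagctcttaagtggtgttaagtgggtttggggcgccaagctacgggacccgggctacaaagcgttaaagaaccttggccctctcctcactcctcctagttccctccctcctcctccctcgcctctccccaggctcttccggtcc
Tnfrsf1b, chr4:145246871-145247120, minus strand: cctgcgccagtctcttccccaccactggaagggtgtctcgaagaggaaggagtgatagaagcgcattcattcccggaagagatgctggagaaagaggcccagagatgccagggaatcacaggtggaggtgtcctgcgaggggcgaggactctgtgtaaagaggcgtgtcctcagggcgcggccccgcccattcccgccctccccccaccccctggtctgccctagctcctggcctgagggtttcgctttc
Tnfsf13, chr11:69685555-69685804, minus strand: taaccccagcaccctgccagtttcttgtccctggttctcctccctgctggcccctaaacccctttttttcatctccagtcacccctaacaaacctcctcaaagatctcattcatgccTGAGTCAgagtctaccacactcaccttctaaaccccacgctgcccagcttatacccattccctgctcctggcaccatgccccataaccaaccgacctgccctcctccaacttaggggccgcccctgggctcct
Tnfrsf12a, chr17:23677450-23677699, minus strand: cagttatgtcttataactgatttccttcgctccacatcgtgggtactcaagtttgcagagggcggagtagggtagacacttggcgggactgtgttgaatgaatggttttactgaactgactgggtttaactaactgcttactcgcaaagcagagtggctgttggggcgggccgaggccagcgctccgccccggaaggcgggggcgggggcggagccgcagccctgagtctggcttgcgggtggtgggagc
Among these, Tnfsf13 alone held a match to any of the motifs searched on both strands, an AP-1 sequence (TGANTCA) at bases -133 to -127 from the start. Of the other members called over all libraries, the windows of Tnfrsf11a, Tnfrsf17, Tnfrsf21, Tnfsf10, Ltbr and Tnfrsf14, not shown, held none of the motifs searched. No window was found for Tnfsf12. Tnfsf13b and Tnfsf18, called higher with age without IgG2a replicate 1, held an AP-1 and a PU.1 match. The AP-1 motif occurred upstream of 7.82% of 27025 mouse genes, in windows of this length, and of 6 of the 33 members found, Fas, Tnfrsf8, Tnfrsf9, Tnfsf13, Tnfsf13b and Tnfsf14. The NF-kB consensus occurred upstream of 4.46% of all genes and of 3 members (Ltb, Tnfrsf8 and Tnfrsf9), and the PU.1 sequence GAGGAAGT upstream of 2.79% and of 1 (Tnfsf18). A match is a description of the sequence.

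RANK, the receptor through which RANK ligand drives osteoclast formation and which myeloid cells carry, was encoded by Tnfrsf11a (ENSMUSG00000026321, chromosome 1, 105780718 to 105847981) and lay at 15.7, 16.7, 11.3, 12.0 and 17.7 CPM in young, 11.4, 42.4, 36.5 and 29.4 in IgG2a and 17.2, 9.97, 15.4 and 12.8 in aPD1ab mice. Replicates 2 to 4 of the IgG2a group were above all other libraries and replicate 1 was near the lowest young value. Its change with age was 1.10 (standard error 0.33, edgeR adjusted p = 0.0449), and 1.36 (standard error 0.17, edgeR adjusted p = 0.000135) without replicate 1. Osteoprotegerin (Tnfrsf11b), the soluble decoy of RANK ligand, measured 0.953, 1.16, 1.19, 0.906 and 1.27 CPM in young, 0.762, 0.491, 0.754 and 1.11 in IgG2a and 1.16, 0.407, 0.908 and 1.38 in aPD1ab mice. The groups overlapped, and the change with age was -0.45 (standard error 0.28, edgeR adjusted p = 0.27).

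TWEAK, a ligand that acts on epithelium and endothelium through Tnfrsf12a, is encoded by Tnfsf12 (ENSMUSG00000097328, chromosome 11, 69686250 to 69695849), which lay at 6.51, 7.02, 5.20, 3.96 and 7.09 CPM in young, 5.86, 14.6, 11.04 and 10.6 in IgG2a and 8.41, 9.53, 12.99 and 10.1 in aPD1ab mice. The lowest IgG2a value, that of replicate 1, fell within the young range and the other 3 above it. The change with age was 0.89 (standard error 0.27, edgeR adjusted p = 0.0477), and 1.08 (standard error 0.20, edgeR adjusted p = 0.00153) without that library. APRIL, which together with BAFF sustains B cells and plasma cells, is encoded by Tnfsf13 (ENSMUSG00000089669, chromosome 11, 69682846 to 69685784), at 0.539, 1.10, 0.913, 0.839 and 0.597 CPM in young, 1.17, 2.45, 1.67 and 3.39 in IgG2a and 0.801, 0.855, 1.08 and 1.15 in aPD1ab mice. No IgG2a library overlapped the young ones for this gene, though replicate 1 (40 counts) lay barely above young replicate 2 (36 counts). The gene changed by 1.48 (standard error 0.36, edgeR adjusted p = 0.0258), or 1.68 (standard error 0.33, edgeR adjusted p = 0.00193) without replicate 1. Tnfsf12 and Tnfsf13 are neighbors on chromosome 11 and share exons with the read-through gene Tnfsfm13 on the same strand, and Tnfsf13 also overlaps the noncoding antisense gene Tnfsf13os, so how reads were divided among them is uncertain. Tnfsfm13 itself ranged over 0.235 to 0.858 CPM in young and 0.415 to 1.14 in IgG2a mice, a change of 0.67 (standard error 0.45, edgeR adjusted p = 0.31). Like the TNF receptors, Tnfsf12 and RANK kept their calls in 1 of 9 fits that left out a library, the fit without IgG2a replicate 1, with an edgeR adjusted p of up to 0.15 and 0.139 in the others. Tnfsf13 kept its call in 2 of 9, with values up to 0.0765. Without the filter on low counts Tnfsf12 and RANK were at an edgeR adjusted p of 0.0598 and 0.0794, and with RLE size factors Tnfsf12 was at 0.0529.

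BAFF, encoded by Tnfsf13b and made by myeloid and stromal cells, measured 7.13, 7.97, 6.83, 3.56 and 6.23 CPM in young, 4.54, 17.1, 20.3 and 15.5 in IgG2a and 9.53, 2.40, 16.8 and 4.95 in aPD1ab mice. Replicate 1 was low and replicates 2 to 4 stood above every young library. The change with age missed the threshold over all libraries at 1.24 (standard error 0.39, edgeR adjusted p = 0.052) and passed it without replicate 1 at 1.53 (standard error 0.22, edgeR adjusted p = 0.000318). Of the 3 receptors for these ligands, BCMA (Tnfrsf17) is a plasma cell gene and had few counts, at most 33 in any library. The gene (ENSMUSG00000022496, chromosome 16, 11313812 to 11320074) measured 0.249, 0.366, 0.0794, 0 and 0 CPM in young, 0.821, 1.35, 0.970 and 1.11 in IgG2a and 0.640, 0, 0.964 and 0.675 in aPD1ab mice. A count of 0, as in 2 young and 1 aPD1ab library, allows up to 0.101 to 0.122 CPM there. The IgG2a and young ranges did not overlap, and the fitted change was 2.92 (standard error 0.74, edgeR adjusted p = 0.0297), or 3.02 (standard error 0.76, edgeR adjusted p = 0.00828) without replicate 1, values that depend on the prior count because young libraries were near the floor. It kept its call in 3 of 9 fits that left out a library, with an edgeR adjusted p of up to 0.0835. TACI (Tnfrsf13b) ranged over 6.95 to 16.6 CPM in young and 10.2 to 37.6 in IgG2a mice, with a change of 1.05 (standard error 0.37, edgeR adjusted p = 0.0773) that became 1.29 (standard error 0.29, edgeR adjusted p = 0.00634) without replicate 1. The BAFF receptor gene Tnfrsf13c, a B cell gene, ranged over 1.04 to 3.44 and 1.72 to 8.64 CPM and changed by 0.80 (standard error 0.54, edgeR adjusted p = 0.31).

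**Figure D3:**
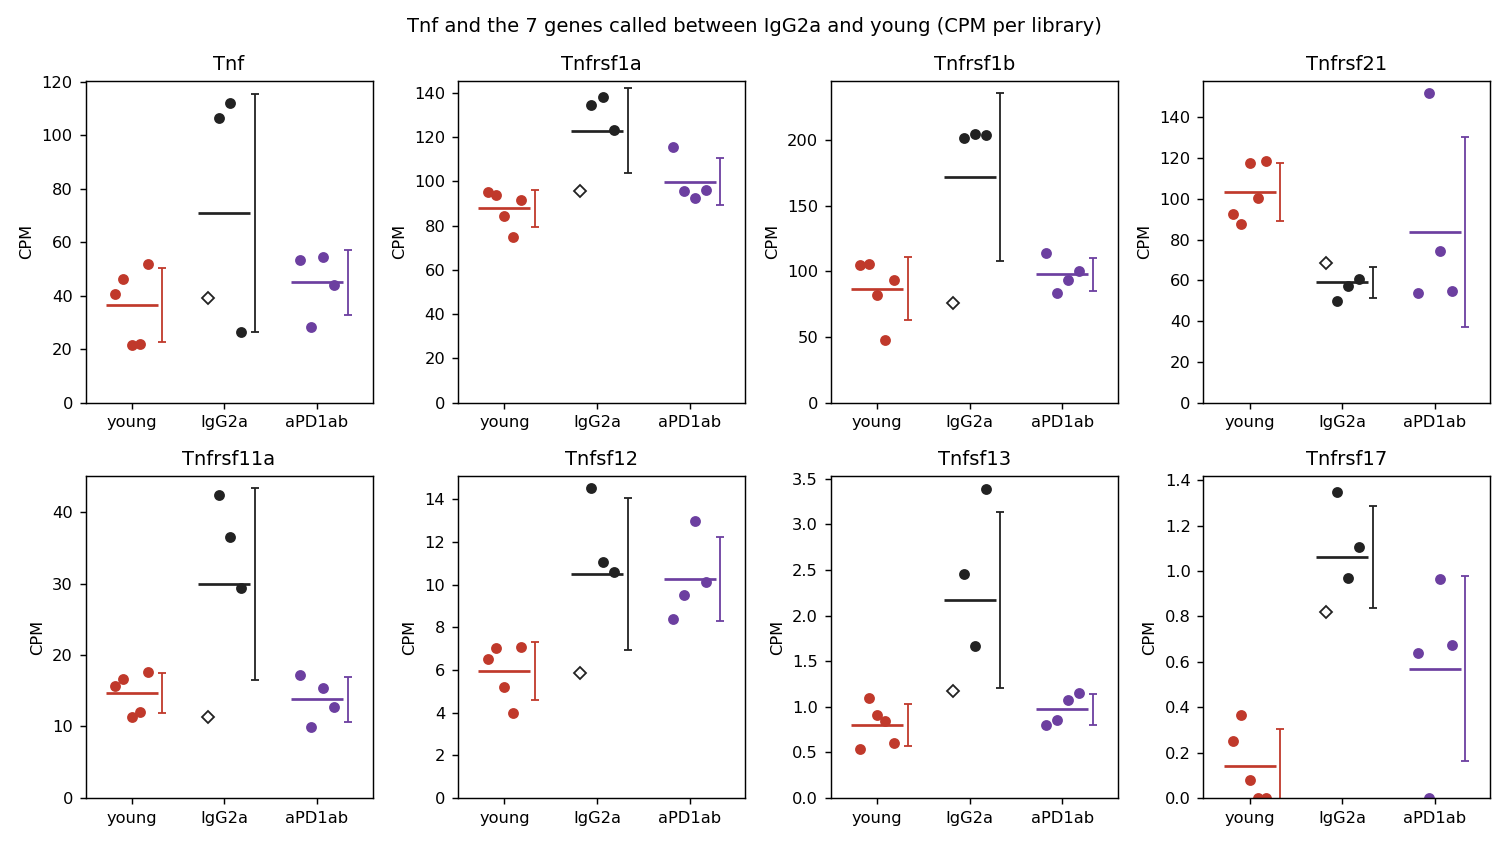
CPM per library of the 7 members called between IgG2a and young mice and of Tnf, by group, with the group mean as a line and the SD as a bar, and IgG2a replicate 1 as an open diamond. For Tnfrsf1b and Tnfrsf11a that library lies within the range of the young libraries while IgG2a replicates 2 to 4 stand above.

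Marker genes of several cell types also differed between IgG2a and young mice. The summed level of 5 plasma cell markers was 20.6 to 54.1 CPM in young and 310.5 to 828 in IgG2a mice, with all 5 called higher, and that of 10 macrophage markers was 1992 to 3689 and 3097 to 9375 CPM, with 9 of 10 called higher and all 10 without replicate 1. Of 4 genes of all leukocytes, 2 were called higher, and 4 without replicate 1 (709 to 1195 CPM in young, 1950.1 to 2276 in IgG2a replicates 2 to 4). Of 8 T cell markers, 2 were called higher, and 6 without replicate 1 (13.7 to 26.3 CPM in young, 20.5 to 57.4 in IgG2a mice). The sums of 6 B cell markers were 65.7 to 205 CPM in young, 66.1 to 346 in IgG2a and 52.1 to 196 in aPD1ab mice. Of the other lists, 1 of 5 NK cell markers, 1 of 5 dendritic cell markers, 6 of 7 endothelial markers, 1 of 4 parietal epithelium markers and 2 of 6 markers of mesangium and stroma were called lower, and 1 of 3 neutrophil markers tested, 1 of the 6 of mesangium and stroma and 1 of 8 of the distal nephron higher. Without replicate 1 there were 3 parietal epithelium, 2 dendritic cell and 7 endothelial markers lower, 2 of mesangium and stroma higher, and 1 of the distal nephron lower and 0 higher, with the NK cell and neutrophil counts as before. All 10 proximal tubule markers were called lower in IgG2a than in young mice and so were 8 of 10 podocyte markers, with 1 podocyte marker called higher, in both sets of libraries. The part of these cell types in the changes of the TNF family was not tested.

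**Figure D4:**
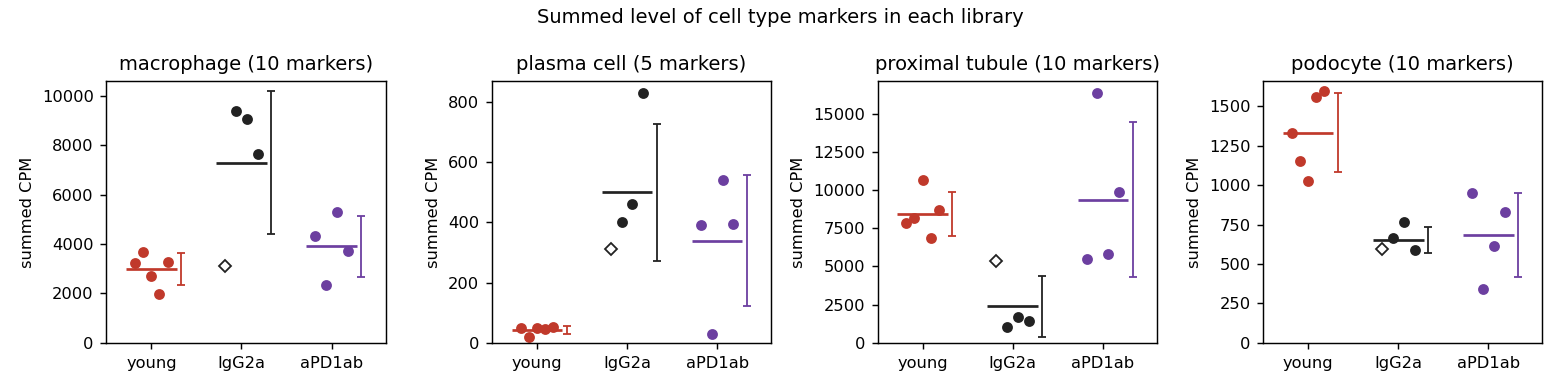
Summed CPM of macrophage, plasma cell, proximal tubule and podocyte markers per library, by group, with the group mean as a line, the SD as a bar and IgG2a replicate 1 as an open diamond. Macrophage sums of IgG2a replicates 2 to 4 exceed those of every other library, and their proximal tubule sums lie below.

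Tnfrsf21 (ENSMUSG00000023915, chromosome 17, 43016555 to 43089189), a death domain receptor, was the member that fell with age. It measured 92.5, 87.5, 118, 100.5 and 119 CPM in young, 68.5, 49.8, 57.0 and 60.8 in IgG2a and 54.0, 152, 74.3 and 54.6 in aPD1ab mice. Every IgG2a library, replicate 1 included, was below every young library, and the change was -0.75 (standard error 0.13, edgeR adjusted p = 0.0104), or -0.83 (standard error 0.12, edgeR adjusted p = 0.000344) without replicate 1, with the call kept whichever library was left out and lost in the edgeR fit of all 3 groups (adjusted p = 0.0612). The aPD1ab mice held both the highest value of all, in replicate 2, and 3 values below the young range. That library also had the highest proximal tubule marker sum, 16331 CPM, and the lowest podocyte marker sum, 344, and the part of either in Tnfrsf21 was not tested.

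The other death receptors and their ligands did not pass the threshold with age over all libraries. Fas, the receptor that signals apoptosis on binding Fas ligand, measured 7.54, 6.87, 7.94, 11.1 and 10.5 CPM in young, 7.01, 6.46, 6.57 and 8.71 in IgG2a and 8.73, 7.74, 8.68 and 9.02 in aPD1ab mice, and its groups overlapped (log2 fold change -0.23, standard error 0.18, edgeR adjusted p = 0.378). Fas ligand, a product of cytotoxic lymphocytes, was near the floor at 0.580, 0.580, 0.0794, 0.201 and 0.485 CPM in young, 0.410, 1.23, 0.431 and 0.691 in IgG2a and 0.400, 0.407, 0.454 and 0 in aPD1ab mice (log2 fold change 0.90, standard error 0.56, edgeR adjusted p = 0.27). TRAIL, encoded by Tnfsf10 (ENSMUSG00000039304, chromosome 3, 27317028 to 27342427), measured 33.7, 45.1, 30.2, 27.7 and 23.0 CPM in young and 26.9, 31.8, 23.1 and 23.1 in IgG2a mice, overlapping ranges with a change of -0.22 (standard error 0.19, edgeR adjusted p = 0.433). Its death receptor Tnfrsf10b ranged over 2.57 to 3.66 CPM in young and 1.99 to 4.72 in IgG2a mice (log2 fold change -0.050, standard error 0.27, edgeR adjusted p = 0.908), with replicate 1 the highest and the other 3 below all young libraries. The decoy TRAIL receptors Tnfrsf22 and Tnfrsf23 and the related Tnfrsf26 lie together on chromosome 7 and are close in sequence, so reads may have been divided among them. Their changes were -0.32, 0.20 and 0.026 on the log2 scale, with young ranges of 5.02 to 6.54, 1.89 to 2.50 and 2.28 to 3.33 CPM, and none passed the threshold (lowest edgeR adjusted p = 0.229). DR3 (Tnfrsf25), a T cell death domain receptor, ranged over 1.37 to 2.22 CPM in young and 0.207 to 1.52 in IgG2a mice. It changed by -0.81 (standard error 0.41, edgeR adjusted p = 0.187), and without replicate 1 it was called lower at -1.14 (standard error 0.43, edgeR adjusted p = 0.0493), while its ligand gene Tnfsf15 changed by -0.085 (standard error 0.43, edgeR adjusted p = 0.904) with 1.51 to 2.60 CPM in young and 0.415 to 3.31 in IgG2a mice.

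Eda2r, the receptor of ectodysplasin A2, measured 0.415, 0.519, 1.07, 0.805 and 0.784 CPM in young, 2.37, 1.76, 1.67 and 0.553 in IgG2a and 1.84, 1.95, 0.681 and 1.49 in aPD1ab mice. In both aged groups 3 of 4 libraries exceeded every young one and the other lay within the young range. The change was 1.22 (standard error 0.41, edgeR adjusted p = 0.0623) for IgG2a against young mice and 1.07 (standard error 0.37, edgeR adjusted p = 0.0609) for aPD1ab against young mice, neither past the threshold. TROY (Tnfrsf19), a receptor without a firmly assigned ligand, ranged over 0.415 to 1.59 CPM in young, 0.415 to 1.43 in IgG2a and 0.567 to 2.25 in aPD1ab mice and changed by 0.29 (standard error 0.46, edgeR adjusted p = 0.674) with age.

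Among the costimulatory members, Cd40, the receptor on B cells, macrophages and dendritic cells that answers CD40 ligand, measured 14.0, 20.2, 8.57, 6.75 and 15.3 CPM in young, 12.8, 31.2, 36.4 and 19.7 in IgG2a and 15.9, 8.96, 18.2 and 23.6 in aPD1ab mice. IgG2a replicates 2 and 3 lay above all other libraries, and the change of 1.02 (standard error 0.37, edgeR adjusted p = 0.0814) did not pass the threshold over all libraries in edgeR and did without replicate 1, at 1.22 (standard error 0.35, edgeR adjusted p = 0.0219). HVEM, the receptor of LIGHT encoded by Tnfrsf14 (ENSMUSG00000042333, chromosome 4, 154921933 to 154928563), measured 6.80, 10.5, 8.25, 6.48 and 6.05 CPM in young, 4.40, 13.2, 10.7 and 16.4 in IgG2a and 6.40, 3.05, 3.40 and 4.41 in aPD1ab mice. Its IgG2a replicate 1 was below the young range and replicates 2 to 4 above it, with a change of 0.62 (standard error 0.34, edgeR adjusted p = 0.215) over all libraries and 0.87 (standard error 0.20, edgeR adjusted p = 0.00516) without replicate 1. CD30 ligand (Tnfsf8) was at 1.75 to 2.82 CPM in young and 1.58 to 4.74 in IgG2a mice and changed by 0.70 (standard error 0.32, edgeR adjusted p = 0.146), or 0.95 (standard error 0.22, edgeR adjusted p = 0.00483) without replicate 1. GITR ligand (Tnfsf18) had few counts, with 0 to 0.634 CPM in young, 0.276 to 2.25 in IgG2a and 0 to 0.281 in aPD1ab mice, and changed by 2.30 (standard error 0.78, edgeR adjusted p = 0.0673), or 2.50 (standard error 0.79, edgeR adjusted p = 0.0266) without replicate 1. CD30 (Tnfrsf8), Cd27, GITR (Tnfrsf18) and OX40 (Tnfrsf4), all receptors of lymphocytes, stayed at or under 3.18 CPM in every library. They changed by 1.36, 0.56, -0.22 and 0.043 (lowest edgeR adjusted p = 0.17), with 0.42 for CD30 without IgG2a replicate 4. GITR exons overlap Gm16008 on the other strand.

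Of the remaining ligands, Tnfsf9, a costimulator of T cells, ranged over 22.3 to 54.9 CPM in young, 29.9 to 79.7 in IgG2a and 18.6 to 49.2 in aPD1ab mice and changed with age by 0.54 (standard error 0.30, edgeR adjusted p = 0.224). LIGHT (Tnfsf14) ranged over 1.48 to 3.11 and 1.52 to 3.88 CPM in young and IgG2a mice (log2 fold change 0.39, standard error 0.34, edgeR adjusted p = 0.427), and lymphotoxin beta (Ltb), a product of lymphocytes, over 1.79 to 6.49 and 2.08 to 13.3 (log2 fold change 0.71, standard error 0.54, edgeR adjusted p = 0.367). The highest Ltb value was in IgG2a replicate 4, which also held the highest sum of B cell markers, 346 CPM, a link that was not tested, and without that library Ltb changed by 0.021 (edgeR adjusted p = 0.98). Lymphotoxin alpha (Lta) did not reach the filter in this comparison and stayed at or under 0.968 CPM. Ltbr, the receptor through which lymphotoxin and LIGHT drive noncanonical NF-kB, changed by 0.14 (standard error 0.11, edgeR adjusted p = 0.358).

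To ask how the family differed with the antibody in aged mice, aPD1ab-injected (n = 4) and IgG2a-injected mice (n = 4) were compared. With all libraries, edgeR called 0 of 37 members, where 0.0% of 15530 genes were higher and 0.0% lower. At an unadjusted p under 0.05 there were 8 members and 4341 genes, and the lowest adjusted p of a member was 0.109, for HVEM. Over the same libraries DESeq2 called 4 members, all lower, 3 of them among the 37 tested in edgeR. Limma's voom with a weight per library called 2 higher and 12 lower, and an edgeR fit of all 3 groups 1 higher and 4 lower. Shares of all genes called by these other fits are not given here or below, so their counts do not compare the family with other genes. The median log2 fold change was -0.38 for the members and -0.011 for all genes, with 26 members below 0. Without IgG2a replicate 1, edgeR called 1 member higher and 7 lower, against 17.1% and 13.2% of 15770 genes, with a median of -0.50 for the members and 0.0052 for all genes. This comparison and the one with age share the IgG2a libraries, so an error in those libraries enters both with opposite sign.

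The members lower without IgG2a replicate 1 were TNFR1, TNFR2, RANK, TACI, HVEM, APRIL and CD30 ligand. TNFR2 fell from 204 ± 1.44 CPM (SD, n = 3) in IgG2a to 97.9 ± 12.7 (SD, n = 4) in aPD1ab mice, which on the log2 scale was -1.08 (standard error 0.13, edgeR adjusted p = 0.0064), and over all libraries the value was -0.83 (standard error 0.31, edgeR adjusted p = 0.135). TNFR1 changed by -0.43 (standard error 0.12, edgeR adjusted p = 0.034) without replicate 1 and by -0.32 (standard error 0.17, edgeR adjusted p = 0.24) with it, and RANK by -1.42 (standard error 0.20, edgeR adjusted p = 0.00657) and -1.14 (standard error 0.37, edgeR adjusted p = 0.119). In each of these 3 receptors the 4 aPD1ab libraries lay below IgG2a replicates 2 to 4, and replicate 1 lay at the level of the aPD1ab libraries or below it. Of the 8 members called without replicate 1, HVEM changed most, by -1.66 (standard error 0.27, edgeR adjusted p = 0.00777), or -1.39 (standard error 0.41, edgeR adjusted p = 0.109) with replicate 1. APRIL was lower in all 4 aPD1ab than in all 4 IgG2a libraries. The gap was narrow, with 1.15 CPM (41 counts) in aPD1ab replicate 4 and 1.17 CPM (40 counts) in IgG2a replicate 1. Its change was -1.16 (standard error 0.38, edgeR adjusted p = 0.118) over all libraries and -1.38 (standard error 0.33, edgeR adjusted p = 0.0183) without replicate 1. CD30 ligand, at 1.19 to 2.56 CPM in aPD1ab mice, changed by -1.34 (standard error 0.29, edgeR adjusted p = 0.0142) without replicate 1 and -1.08 (standard error 0.40, edgeR adjusted p = 0.134) with it. TACI, at 4.36 to 20.2 CPM in aPD1ab mice, changed by -1.28 (standard error 0.41, edgeR adjusted p = 0.0483) and -1.01 (standard error 0.48, edgeR adjusted p = 0.206). The 10 macrophage markers were all called lower in the same libraries, with sums of 2330.2 to 5285 CPM in aPD1ab mice, and all 10 proximal tubule markers higher. Of the other lists, all 4 genes of all leukocytes, 3 of 8 T cell markers, 1 podocyte marker and 1 each of the NK cell, neutrophil, dendritic cell and mesangial and stromal markers were lower there, and 5 of 10 podocyte markers, 3 of 4 parietal epithelium markers and 1 of the distal nephron higher. No plasma cell, B cell or endothelial marker was called without replicate 1. The part of any of these cell types in the fall of these members was not tested.

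The member that was higher without IgG2a replicate 1 was Tnfrsf12a (Fn14), the TWEAK receptor, which injured epithelium is known to induce. The gene (ENSMUSG00000023905, chromosome 17, 23675445 to 23677468) measured 13.5, 9.68, 9.84, 10.7 and 14.3 CPM in young, 17.4, 13.3, 16.1 and 5.94 in IgG2a and 19.0, 23.1, 23.9 and 30.8 in aPD1ab mice. The 4 aPD1ab libraries lay above all 9 others, although replicate 1 of the aPD1ab group was close to replicate 1 of the IgG2a group. With age it changed by 0.26 (standard error 0.27, edgeR adjusted p = 0.515). The change of aPD1ab against IgG2a mice was 1.01 (standard error 0.33, edgeR adjusted p = 0.0489) without IgG2a replicate 1 and 0.86 (standard error 0.31, edgeR adjusted p = 0.129) with it. Apart from the pairwise fits that left out a library, 3 of 6 alternative fits called it. The summed level of 4 parietal epithelium markers was 128 to 176 CPM in young, 83.0 to 199 in IgG2a and 142 to 274 in aPD1ab mice, with 3 of 4 called higher than in IgG2a mice without replicate 1, and its part in Tnfrsf12a was not tested. TRAIL also separated the aPD1ab libraries, at 18.9, 19.7, 21.8 and 14.6 CPM, from all IgG2a libraries, at -0.50 (standard error 0.17, edgeR adjusted p = 0.123) over all libraries and -0.50 (standard error 0.18, edgeR adjusted p = 0.0694) without replicate 1, past the threshold in neither. Tnf changed by -0.69 (standard error 0.46, edgeR adjusted p = 0.345), BAFF by -0.81 (standard error 0.61, edgeR adjusted p = 0.399), Cd40 by -0.61 (standard error 0.37, edgeR adjusted p = 0.302), and without replicate 1 by -0.90, -1.11 and -0.84 (lowest edgeR adjusted p = 0.0799). Tnfrsf10b had 0.40 (standard error 0.32, edgeR adjusted p = 0.424) over all libraries and 0.77 (standard error 0.25, edgeR adjusted p = 0.0508) without replicate 1, and Tnfrsf26 had -0.87 (standard error 0.38, edgeR adjusted p = 0.177) and -0.997 (standard error 0.40, edgeR adjusted p = 0.0897).

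GITR ligand (Tnfsf18) did not reach the filter here or between aPD1ab and young mice. It lay at 0.276 to 2.25 CPM in IgG2a and 0 to 0.281 in aPD1ab mice. No remaining tested member passed the threshold in either set of libraries. Over all libraries their log2 fold changes ran from -1.62 for Tnfrsf8 to 0.96 for Tnfrsf25. The value of Tnfrsf8 was -0.69 without IgG2a replicate 4. Among the receptors, Tnfrsf21 changed by 0.51 (standard error 0.34, edgeR adjusted p = 0.342), and by 0.022 without aPD1ab replicate 2 (edgeR adjusted p = 0.956). Ltbr changed by 0.32 (standard error 0.16, edgeR adjusted p = 0.237), Fas by 0.24 (standard error 0.16, edgeR adjusted p = 0.34), BCMA by -0.93 (standard error 0.73, edgeR adjusted p = 0.418) and Eda2r by -0.11 (standard error 0.47, edgeR adjusted p = 0.898). TWEAK, the ligand of Tnfrsf12a, changed by -0.054 (standard error 0.28, edgeR adjusted p = 0.917), and Fas ligand by -1.20 (standard error 0.81, edgeR adjusted p = 0.348). The values were -0.22 for Ltb, 0.092 for Lta, 0.032 for LIGHT, -0.38 for Tnfsf15, -0.41 for Tnfsf9 and -0.19 for Tnfsfm13. Receptors of lymphocytes gave -0.77 for Cd27, -0.42 for Tnfrsf13c, -0.68 for GITR and 0.31 for OX40, and the rest 0.32 for osteoprotegerin, 0.65 for TROY, -0.12 for Tnfrsf22 and -0.21 for Tnfrsf23.

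**Figure D5:**
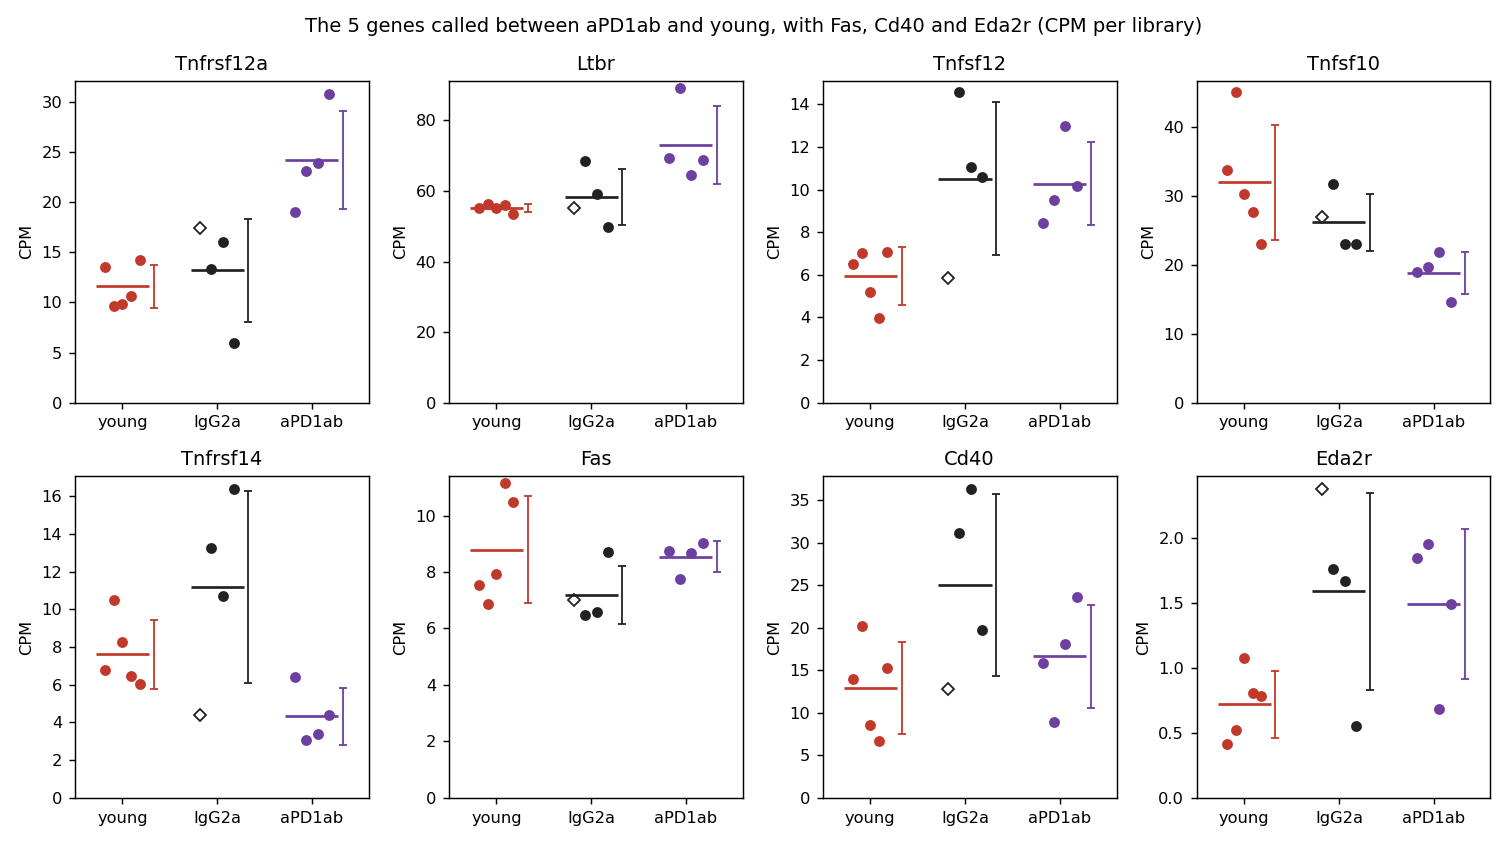
CPM per library of the 5 members called between aPD1ab and young mice and of Fas, Cd40 and Eda2r, by group, with mean line, SD bar and IgG2a replicate 1 as an open diamond. All 4 aPD1ab points of Tnfrsf12a lie above the other libraries.

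To see which differences from young mice were present in aged mice given the antibody, aPD1ab-injected (n = 4) and young mice (n = 5) were compared, with no IgG2a library in the fit. The young libraries are those of the comparison with age, and here too age and injection cannot be told apart. Of 37 members tested, 3 were higher and 2 lower, where 12.4% of 15986 genes were higher and 9.97% lower, and the medians were 0.19 for the members and 0.017 for all genes. Tnfrsf12a rose by 1.08 (standard error 0.17, edgeR adjusted p = 0.00408), from 11.6 ± 2.14 (SD, n = 5) to 24.2 ± 4.91 (SD, n = 4) CPM. Its ligand TWEAK rose by 0.79 (standard error 0.20, edgeR adjusted p = 0.0183), with every aPD1ab library above every young one. Ltbr (ENSMUSG00000030339, chromosome 6, 125306571 to 125313885) measured 55.1, 56.4, 55.2, 55.9 and 53.3 CPM in young, 55.3, 68.6, 59.0 and 49.8 in IgG2a and 69.3, 89.2, 64.5 and 68.8 in aPD1ab mice. The young values were very close together and all aPD1ab values lay above them, for a change of 0.41 (standard error 0.10, edgeR adjusted p = 0.0198). These 3 calls held with each library left out in turn.

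TRAIL and HVEM were the 2 members lower in aPD1ab than in young mice. TRAIL changed by -0.76 (standard error 0.19, edgeR adjusted p = 0.0201), with every aPD1ab library below every young one, and lost the call without aPD1ab replicate 4 (edgeR adjusted p = 0.0564). HVEM changed by -0.80 (standard error 0.25, edgeR adjusted p = 0.0441), with 1 aPD1ab library inside the young range, and lost the call in 7 of 9 fits that left out a library, with an edgeR adjusted p of up to 0.0985, as well as in the edgeR fit of all 3 groups (adjusted p = 0.111) and in limma's weighted voom (adjusted p = 0.0541). For TNFR1, TNFR2 and RANK the values against young mice were 0.20 (standard error 0.11, edgeR adjusted p = 0.218), 0.19 (standard error 0.21, edgeR adjusted p = 0.555) and -0.077 (standard error 0.18, edgeR adjusted p = 0.795). Tnfrsf21 gave -0.29 (standard error 0.29, edgeR adjusted p = 0.49) over all libraries and was called lower without aPD1ab replicate 2, at -0.75 (edgeR adjusted p = 0.0086). The values were, for Tnf 0.32 (standard error 0.29, edgeR adjusted p = 0.46), for APRIL 0.29 (standard error 0.29, edgeR adjusted p = 0.509), for BAFF 0.40 (standard error 0.46, edgeR adjusted p = 0.557) and for BCMA 1.96 (standard error 0.99, edgeR adjusted p = 0.176). Plasma cell markers, at 29.8 to 542 CPM in aPD1ab mice, had 4 of 5 called higher than in young mice, and podocyte markers 3 of 10 called lower. Lower were also 3 of 5 dendritic cell, 2 of 4 NK cell markers tested, 2 of 7 endothelial and 2 of 6 mesangial and stromal markers, and higher 2 of 8 T cell, 1 of 4 parietal epithelium and 1 of 8 distal nephron markers. Macrophage and proximal tubule sums in aPD1ab mice were 2330.2 to 5285 and 5514 to 16331 CPM, against 1992 to 3689 and 6843 to 10687 in young mice. The part of any of them in these values was not tested. Other members with an unadjusted p under 0.05 were Eda2r, given above, GITR (log2 fold change -0.93, standard error 0.37, edgeR adjusted p = 0.0985) and Tnfrsf26 (log2 fold change -0.88, standard error 0.33, edgeR adjusted p = 0.0766). The values of the rest were -0.030 for Fas, -0.36 for Fasl, 0.37 for Cd40, 0.0064 for TACI, 0.35 for Tnfrsf13c, -0.16 for osteoprotegerin, 0.31 for Tnfrsf10b, 0.90 for TROY, 0.12 for DR3 and -0.41 for CD30 ligand. They were 0.49 for Lta, 0.46 for Ltb, 0.39 for LIGHT, -0.52 for Tnfsf15, 0.10 for Tnfsf9, 0.44 for Tnfsfm13, -0.26 for Cd27, -0.47 for Tnfrsf22, -0.041 for Tnfrsf23, 0.30 for OX40 and -0.29 for CD30.

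Of 35 adaptors and enzymes that carry or trim TNF receptor signals, all tested, 9 were higher and 1 lower in IgG2a than in young mice, with a median log2 fold change of 0.27 against 0.038 for all genes (20 higher and 2 lower without replicate 1). The shares of all genes called were 9.05% higher and 8.38% lower, and 22.1% and 23.5% without replicate 1. Tank, an adaptor that binds TRAF proteins, rose by 0.82 (edgeR adjusted p = 0.0174) and Chuk, the IKK alpha kinase, was lower, at -0.52 (edgeR adjusted p = 0.0199), and the most abundant members Tab2 and Cflar, a brake on caspase-8, changed by 0.23 (edgeR adjusted p = 0.205) and -0.068 (edgeR adjusted p = 0.734). Without replicate 1 the values were 0.95 (edgeR adjusted p = 7.73e-05) for Tank, -0.60 (edgeR adjusted p = 0.000704) for Chuk, 0.31 (edgeR adjusted p = 0.00848) for Tab2 and -0.019 (edgeR adjusted p = 0.903) for Cflar. Adam17, the protease that sheds TNF and its receptors, rose by 0.59 (edgeR adjusted p = 0.0447) and, without replicate 1, by 0.73 (edgeR adjusted p = 0.000115). Between aPD1ab and IgG2a mice edgeR called 0 of the 35 over all libraries. At an unadjusted edgeR p under 0.05 there were 10 of the 35, where 4341 of 15530 genes passed. DESeq2 called 5 and weighted voom 14, with no share of all genes beside them. Of the 35, 1 was higher and 11 lower without replicate 1, where 17.1% of all genes were higher and 13.2% lower. There Adam10, a related sheddase, was lower, at -0.95 (edgeR adjusted p = 0.0064), as was the necroptosis kinase Ripk3, at -0.96 (edgeR adjusted p = 0.00737), against -0.79 (edgeR adjusted p = 0.109) and -0.74 (edgeR adjusted p = 0.133) with it. Against young mice 3 were higher and 5 lower with aPD1ab, where 12.4% of all genes were higher and 9.97% lower, with the lowest p for Adam10 at -0.57 (edgeR adjusted p = 0.00387) and the caspase inhibitor Xiap at -0.55 (edgeR adjusted p = 0.00773).

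Of 26 known NF-kB target genes, 25 were tested. In IgG2a against young mice 6 were higher and 0 lower, with a median log2 fold change of 0.81 against 0.038 for all genes (11 higher and 1 lower without replicate 1). The shares of all genes called were 9.05% higher and 8.38% lower, and 22.1% and 23.5% without replicate 1. The lowest p values were those of the adhesion molecule Vcam1 at 2.22 (edgeR adjusted p = 0.00422) and the NF-kB subunit Relb at 1.20 (edgeR adjusted p = 0.0233). The most abundant, Il1b and Nfkbiz, changed by 0.71 (edgeR adjusted p = 0.208) and 0.67 (edgeR adjusted p = 0.221). Without replicate 1 Vcam1 was at 2.34 (edgeR adjusted p = 0.000347), Relb at 1.36 (edgeR adjusted p = 0.00255), Il1b at 0.83 (edgeR adjusted p = 0.128) and Nfkbiz at 0.77 (edgeR adjusted p = 0.156). Without replicate 1 the lowest p values were those of the mitochondrial superoxide dismutase Sod2, at -0.74 (edgeR adjusted p = 0.000294), and of the gelatinase Mmp9, at 2.12 (edgeR adjusted p = 0.000326), against -0.39 (edgeR adjusted p = 0.235) and 1.83 (edgeR adjusted p = 0.028) with it. Between aPD1ab and IgG2a mice edgeR called 0 of the 25, with a median of -0.30 against -0.011 for all genes. At an unadjusted edgeR p under 0.05 there were 5 of the 25, where 4341 of 15530 genes passed. DESeq2 called 2 and limma's voom 3, with no share of all genes beside them. Without replicate 1, 1 was higher and 1 lower, where 17.1% of all genes were higher and 13.2% lower. These were Sod2, at 1.09 (edgeR adjusted p = 0.00761), and Mmp9, at -1.99 (edgeR adjusted p = 0.00752), against 0.76 (edgeR adjusted p = 0.133) and -1.68 (edgeR adjusted p = 0.109) with replicate 1. Against young mice 5 were higher and 0 lower with aPD1ab, where 12.4% of all genes were higher and 9.97% lower, led by the endothelial adhesion molecule Sele at 2.35 (edgeR adjusted p = 0.00307) and Vcam1 at 1.46 (edgeR adjusted p = 0.00315), with a median of 0.39 against 0.017 for all genes. Sele changed by 1.18 (edgeR adjusted p = 0.112) between aPD1ab and IgG2a mice, and by 1.19 (edgeR adjusted p = 0.0587) without replicate 1.

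The 5 family genes whose symbols fall outside the prefixes used, Eda, Edar, Ngfr, Relt and Nradd, were at 0.388 to 13.5 CPM on average in any group, with a lowest edgeR adjusted p over all libraries of 0.0582 for IgG2a against young, 0.112 for aPD1ab against IgG2a and 0.0764 for aPD1ab against young mice. Relt, a receptor of blood cells, changed by 1.09 (edgeR adjusted p = 0.0582) with age and -1.35 (edgeR adjusted p = 0.112) between aPD1ab and IgG2a mice, and without replicate 1 the values were 1.37 (edgeR adjusted p = 3.46e-05) and -1.66 (edgeR adjusted p = 0.0064).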

How the data were processed

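Bulk RNA-seq was made from podocyte fractions of 15 mice, 5 for each of the young, IgG2a and aPD1ab groups, and the deposited table holds the authors' raw read counts per Ensembl gene as whole numbers. The submitters' processing notes name HISAT2, featureCounts and the mm10 build. Their roles, versions and strand setting are not given in the sources used here. Columns were tied to groups by the numbers beside the podocyte points in the study's principal component plot, which placed 13 of them, and no label carries these numbers. The 2 other columns were not used. Symbols, positions and exon lengths came from GENCODE M21 (GRCm38), with a symbol for 45229 of 46078 genes.

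The members and all gene lists were chosen with earlier results of these data known. Each pair of groups was fitted alone in R 4.3.3 with edgeR 4.0.16 (robust quasi-likelihood test, TMM normalization, filterByExpr), with Benjamini-Hochberg adjustment over all genes tested and a threshold of 0.05. The fit was tested on simulated data. CPM values are counts scaled by TMM over the 13 libraries. Replicates are separate mice by the labels. Alternatives were RLE size factors in edgeR, DESeq2 1.42.0, limma 3.58.1 voom with sample quality weights, no filter on low counts, 1 fit of all 3 groups and leaving out each library. The fit of all 3 groups with IgG2a replicate 1 left out was chosen after seeing the data. Replicate 1 was also singled out for the pairwise fits by its place in these data, so p-values without it depend on that choice. Every tested member is named, and values per library are given for each gene called in any comparison over all libraries and for Tnf, Tnfrsf1a, Tnfrsf1b, Fas, Fasl, Cd40, Tnfrsf12a, Tnfrsf11b, Tnfsf10, Tnfsf13b and Eda2r. Of the signaling and target lists, the 2 genes with the smallest p in each comparison and the 2 most abundant are named, and Adam17 was chosen for the comparison over all libraries after its values were seen.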

Additional observations from a re-analysis of the deposited data

Results flagged for a closer look

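Single libraries stood far from the rest of their group in 9 of 114 combinations of member and group by Dixon's test, where chance flags about 1 in 20, and 2 of the 9 were in IgG2a replicate 1. In that library Tnfrsf1b was lowest at 75.6 CPM and Tnfrsf10b highest at 4.72 CPM. In IgG2a replicate 4, Tnfrsf13c was highest at 8.64 CPM and Tnfrsf8 highest at 3.18 CPM, and in IgG2a replicate 2, Tnfrsf4 was lowest at 0.368 CPM. Among the aPD1ab libraries, Tnfrsf1a was highest in replicate 1 at 116 CPM, Tnfsf9 lowest in replicate 2 at 18.6 CPM and Fasl lowest in replicate 4, at 0 counts, which allows up to 0.0843 CPM there. Among the young libraries, Tnfrsf19 was highest in replicate 3 at 1.59 CPM.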

How the results depend on the processing

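Counts of calls depended on the tool and on IgG2a replicate 1, and the cause was not tested. The counts below compare settings, and the shares of all genes called under each are not given beside them. For IgG2a against young mice (edgeR 6 higher, 1 lower, 10 adaptors and 6 targets), DESeq2 gave 11 members higher, 1 lower, 10 adaptors and 9 NF-kB targets, voom with sample quality weights 13 members higher, 2 lower, 23 adaptors and 13 NF-kB targets, no filter on low counts 3 members higher, 1 lower, 6 adaptors and 4 NF-kB targets, a fit of all 3 groups 6 members higher, 0 lower, 7 adaptors and 5 NF-kB targets and that fit with IgG2a replicate 1 left out 13 members higher, 1 lower, 19 adaptors and 12 NF-kB targets. For aPD1ab against IgG2a mice (edgeR 0 higher, 0 lower, 0 adaptors and 0 targets), DESeq2 gave 0 members higher, 4 lower, 5 adaptors and 2 NF-kB targets, voom with sample quality weights 2 members higher, 12 lower, 14 adaptors and 3 NF-kB targets, no filter on low counts 0 members higher, 0 lower, 0 adaptors and 0 NF-kB targets, a fit of all 3 groups 1 member higher, 4 lower, 6 adaptors and 3 NF-kB targets and that fit with IgG2a replicate 1 left out 2 members higher, 9 lower, 12 adaptors and 6 NF-kB targets. For aPD1ab against young mice (edgeR 3 higher, 2 lower, 8 adaptors and 5 targets), DESeq2 gave 4 members higher, 3 lower, 9 adaptors and 11 NF-kB targets, voom with sample quality weights 5 members higher, 2 lower, 8 adaptors and 9 NF-kB targets, no filter on low counts 3 members higher, 2 lower, 6 adaptors and 5 NF-kB targets, a fit of all 3 groups 3 members higher, 1 lower, 8 adaptors and 4 NF-kB targets and that fit with IgG2a replicate 1 left out 3 members higher, 3 lower, 9 adaptors and 4 NF-kB targets. RLE size factors in place of TMM moved none of these counts by over 1.5 times, though Tnfsf12 and Tnfrsf1b lost their calls with age (edgeR adjusted p = 0.0529 and 0.0537). With each library left out in turn there were 0 to 12 members higher, 1 to 2 lower, 0 to 22 adaptors and 1 to 12 targets for IgG2a against young, 0 to 1 members higher, 0 to 7 lower, 0 to 12 adaptors and 0 to 2 targets for aPD1ab against IgG2a and 3 to 4 members higher, 0 to 3 lower, 5 to 10 adaptors and 4 to 10 targets for aPD1ab against young. No gene called over all libraries turned its direction under an alternative. Log2 fold changes that crossed 0 for age were Tnfrsf26 -0.0036 with DESeq2, Tnfrsf4 -0.11 with voom, Tnfrsf26 -0.016 without the filter, Tnfrsf26 -0.039 and Tnfrsf4 -0.018 in the fit of all 3 groups, Tnfrsf4 -0.076 in that fit without IgG2a replicate 1. Log2 fold changes that crossed 0 for aPD1ab against IgG2a were Tnfrsf13c 0.27, Tnfrsf22 0.073 and Tnfrsf4 -0.082 with voom, Lta -0.30, Tnfsf14 -0.13, Tnfsf15 0.068 and Eda2r 0.16 in that fit without IgG2a replicate 1. Log2 fold changes that crossed 0 for aPD1ab against young were Tnfsf13b -0.039, Fas 0.11, Tnfrsf11b 0.036, Tnfrsf13b -0.088, Tnfrsf23 0.011 and Tnfrsf4 -0.17 with voom, Tnfrsf13b -0.0043 without the filter, Tnfrsf13b -0.0028 in the fit of all 3 groups, Tnfrsf13b -0.0036 in that fit without IgG2a replicate 1. With a library left out, those that crossed 0 for age were Tnfrsf18 (-0.55 to 0.027), Tnfsf15 (-0.53 to 0.21), Tnfrsf26 (-0.057 to 0.13), Tnfrsf4 (-0.12 to 0.24), Tnfrsf10b (-0.44 to 0.077), Tnfrsf19 (-0.035 to 0.71), Tnfrsf23 (-0.025 to 0.34) and Tnfrsf13c (-0.020 to 1.04). With a library left out, those that crossed 0 for aPD1ab against IgG2a were Lta (-0.34 to 1.07), Tnfsf14 (-0.23 to 0.30), Tnfsf15 (-0.69 to 0.045), Eda2r (-0.37 to 0.13), Tnfsf12 (-0.26 to 0.13), Tnfsfm13 (-0.38 to 0.045), Tnfrsf23 (-0.36 to 0.026), Ltb (-0.52 to 0.47), Tnfrsf13c (-0.80 to 0.40) and Tnfrsf22 (-0.32 to 0.088). With a library left out, those that crossed 0 for aPD1ab against young were Tnfrsf8 (-0.58 to 0.056), Tnfsf9 (-0.041 to 0.34), Tnfrsf13b (-0.29 to 0.29), Fas (-0.11 to 0.061), Tnfrsf11a (-0.20 to 0.050), Tnfrsf11b (-0.40 to 0.095), Tnfsf13b (-0.16 to 0.71), Tnfrsf23 (-0.12 to 0.054), Fasl (-0.61 to 0.12), Tnfrsf13c (-0.036 to 0.69) and Tnfrsf25 (-0.39 to 0.34). No paired analysis was possible because the columns carry no replicate number shared between groups. At these totals, members under about 1 CPM rest on few counts, and a change in them was often not detectable.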
